A study of Mus musculus with 6 samples.

Results

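The genes described here are the ligands Tgfb1, Tgfb2 and Tgfb3, the receptors Tgfbr1 and Tgfbr2, the intracellular mediators Smad3 and Smad7, the target gene Tgfbi, and Bmp7, a ligand that opposes TGF-β in the kidney. They were chosen by name, and every probe on the array that carries 1 of these 9 gene names was taken. The array holds 36870 gene names, and the 9 genes are covered by 16 probes. All 16 passed the filter for the test, a signal well above background on no fewer than 3 of 6 arrays, and 15 were above it on all 6.

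TGF-β is secreted as an inactive complex with its own propeptide, and it is bound to the matrix or to cell surfaces by carrier proteins until it is released, for example by integrins. The active ligand joins the type II receptor Tgfbr2 with the type I receptor Tgfbr1, which phosphorylates Smad2 and Smad3, and these enter the nucleus with Smad4. The pathway is known in the kidney for the production of collagens and other matrix proteins in fibrosis and for restraint of immune cells. Bmp7 acts through other receptors and through Smad1, Smad5 and Smad9. It is needed for nephron formation, and in the adult kidney it is made mainly by distal tubule segments and podocytes.

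Kidney RNA was compared between 3 female MRL/MpJ mice (MRL) and 3 female MRL/MpJ-Fas lpr/lpr mice (LPR), all at 6 months of age and without treatment. LPR mice are homozygous for the lpr mutation of the death receptor gene Fas and develop autoimmune disease with nephritis and lymphoid infiltrates. The MRL/MpJ background, which itself is prone to milder autoimmunity, is shared by both groups. Each mouse gave 1 single-colour array of whole kidney, so that in this bulk RNA fewer cells of a type and less RNA per cell cannot be told apart.

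Signals are given as the log2 intensity minus the 75th percentile of the same array, and a log2 change is LPR minus MRL. This percentile lay at intensities of 706 to 759 on 5 arrays and at 942 on LPR 1, between 69.6% and 73.5% of the probes' spots were well above background, and no spot was saturated. Within a group Pearson's r across probes was 0.990 to 0.993, and between groups it was 0.961 to 0.971. Over the 39924 tested probes the median log2 change was -0.14, and the members' changes stand beside this shift. For Fas itself, probe A_55_P2091676 had a log2 change of -0.47 that did not pass in limma (adjusted p = 0.234). The other Fas probe, A_52_P73385, was above background in no MRL mouse (0 of 3). It was higher in LPR mice by at least 1.47-fold (adjusted p = 0.0338), with an adjusted p of 0.0869 to 0.0942 without MRL 1 or MRL 3. This dim probe did not pass under 9 of 16 alternatives in processing, test or samples. With normexp background correction its log2 change was 0.19 (adjusted p = 0.189 by limma).

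The probes behind the ligands are shown first, because the ligands share sequence and were measured with different outcomes. The sequences are those of the array, 5′ to 3′, on build mm9. Tgfb1 has 1 probe in the part of the gene that encodes the conserved end of the ligand (chr7:26489877-26489936, plus strand) and 1 further upstream (chr7:26477408-26477467, plus strand). The Tgfb2 probe (chr1:188449333-188449392, minus strand) covers the same conserved region of that ligand. Capitals mark the bases at which the first Tgfb1 probe and the Tgfb2 probe match when laid over each other without gaps.
Tgfb1 A_51_P390715: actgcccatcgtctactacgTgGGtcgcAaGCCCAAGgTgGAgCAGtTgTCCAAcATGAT
Tgfb1 A_66_P135688: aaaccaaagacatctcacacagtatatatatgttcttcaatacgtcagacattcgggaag
Tgfb2 A_65_P10913: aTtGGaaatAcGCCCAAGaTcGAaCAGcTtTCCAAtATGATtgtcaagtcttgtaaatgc
The overlap spans 41 bases, of which 28 match and 13 differ.

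Tgfb1 and Tgfb3 were higher in LPR kidneys, and Tgfb2 did not pass the test. Together with the target gene Tgfbi, 3 of the 9 genes were higher and 0 were lower at an adjusted p under 0.05 in limma, and by probe 4 of 16 were higher and 0 lower. At an unadjusted p under 0.05, Tgfbr2 was higher as well and Bmp7 was lower. Among all tested probes, 6.53% were higher and 6.17% were lower. With 1 probe per gene, the brightest, 7.12% of 25805 genes were higher and 5.47% were lower. The median log2 change of the 9 genes was 0.28, beside -0.12 for all genes.

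Tgfb1, the ligand made by most immune cells, gave -2.15, -2.13 and -2.32 in MRL 1, 2 and 3 and -1.18, -0.97 and -1.23 in LPR 1, 2 and 3 with A_51_P390715. The groups did not overlap, and the 3 mice of a group lay close together. The signal rose 2.11-fold, and limma gave a log2 change of 1.08 ± 0.12 (standard error) with an adjusted p of 0.00162. The upstream probe A_66_P135688 gave -4.64, -4.92 and -4.48 in MRL mice and -3.68, -3.52 and -4.12 in LPR mice. It rose by 0.91 on the log2 scale (standard error 0.19, adjusted p = 0.0264 by limma). The groups were again apart, but this dimmer probe no longer passed without MRL 1, MRL 2, LPR 1 or LPR 2 (adjusted p = 0.0597 to 0.0773), and with normexp background correction its change was 0.31. The brighter probe passed under all 21 alternatives, with changes from 0.79 to 1.13.

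Tgfb3, a ligand made largely by mesenchymal cells, was measured by A_51_P124748 (chr12:87397804-87397863, minus strand). It gave -1.05, -0.93 and -1.02 in MRL mice and -0.34, -0.32 and -0.48 in LPR mice. All 3 LPR mice exceeded all 3 MRL mice. The level rose 1.54-fold, and limma gave a log2 change of 0.62 ± 0.10 (standard error) with an adjusted p of 0.0104. The slide column is here the first position number in each array's barcode. Whether that number counts columns or rows of the slide was not checked. By it, MRL 1, 2 and 3 and LPR 1 lay in 1 column and LPR 2 and 3 in another. With the slide column as a block, LPR 1 is therefore the only LPR mouse compared with MRL mice, as within the first column alone. The change was 0.65 in both settings, which cannot tell slide position from a single mouse.

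Tgfb2 gave no change that passed with either probe. With A_65_P10913 its signals were -1.46, -1.48 and -1.71 in MRL mice and -1.31, -1.88 and -1.51 in LPR mice. The LPR values lay on both sides of the MRL values. The log2 change was -0.02 (95% interval -0.42 to 0.38, adjusted p = 0.947 by limma), an interval that lies below the rise of the Tgfb1 probe with which it shares sequence. The dimmer probe A_51_P317640 had a change of 0.09 (95% interval -0.44 to 0.62).

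**Figure D1:**
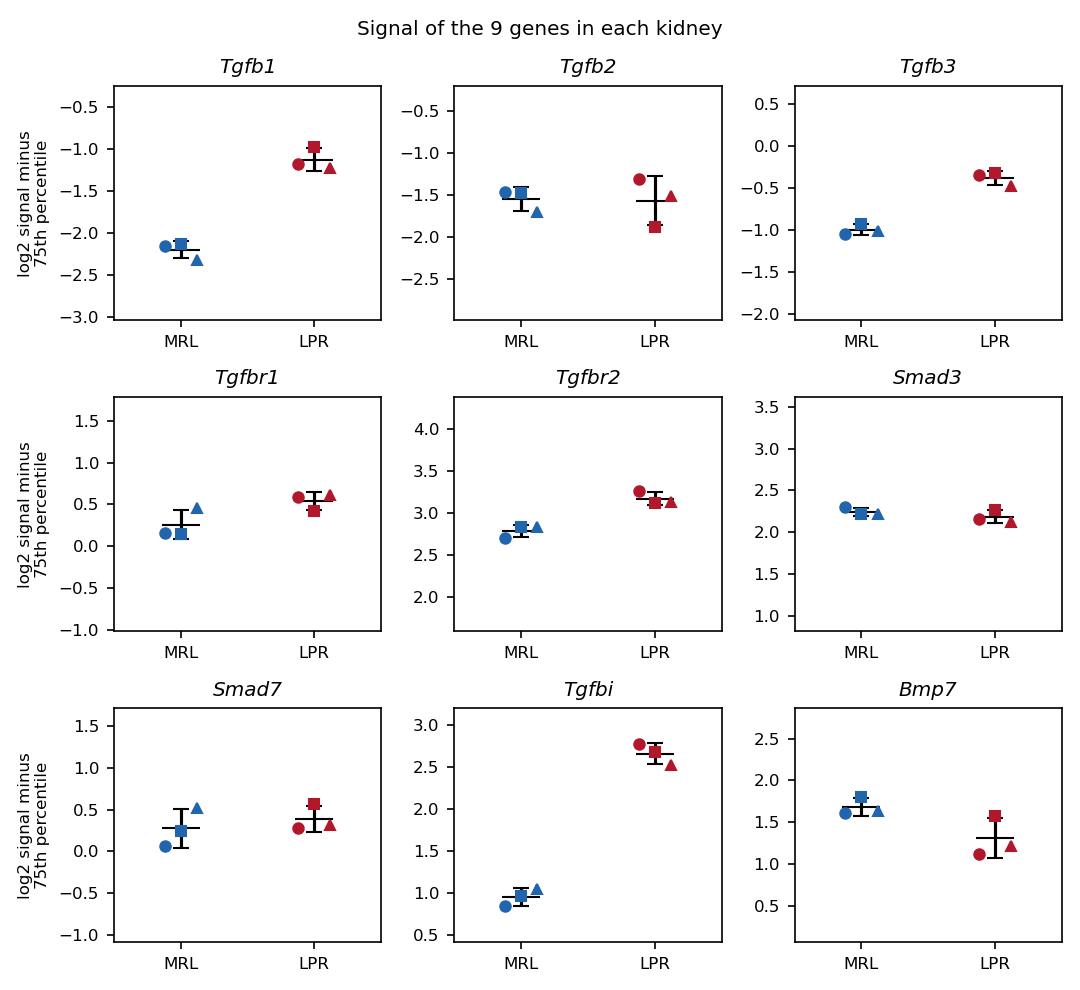
Signal of the 9 genes in each kidney, by the brightest probe of each gene. The y axis is the log2 intensity minus the array's 75th percentile and spans the same range in each panel. Circles, squares and triangles are replicates 1, 2 and 3 of MRL (blue) and LPR mice (red), and horizontal lines with bars are the mean and SD of 3 mice. The groups are apart for Tgfb1, Tgfb3, Tgfbi, Tgfbr2 and Bmp7, and the last 2 did not pass the test. The share of all probes with groups apart was not counted. With 3 mice per group such separation also occurs at small changes, as for Ltbp3 (0.08).

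Neither receptor passed the test. Tgfbr2, the receptor that binds the ligand, gave 2.71, 2.83 and 2.84 in MRL mice and 3.27, 3.12 and 3.13 in LPR mice with its only probe, A_55_P2909739 on chromosome 9. All LPR values were above all MRL values. The log2 change was 0.38 (standard error 0.10, 95% interval 0.14 to 0.63), and the adjusted p of 0.0551 from limma lay just above the threshold. It passed under 5 of 21 alternatives, among them the test restricted to probes well above background on all 6 arrays (adjusted p = 0.0467).

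Tgfbr1, the kinase that phosphorylates the Smads, was covered by 4 probes that moved in both directions without passing. Its brightest probe A_52_P4538 (chr4:47427421-47427480, plus strand) gave 0.16, 0.15 and 0.46 in MRL mice and 0.58, 0.42 and 0.62 in LPR mice, with overlap. Its log2 change was 0.28 (95% interval -0.02 to 0.59, adjusted p = 0.187 by limma). Probe A_51_P280137 had a change of -0.23 (95% interval -0.49 to 0.03), A_55_P1960901 of -0.14 and A_55_P1960906 of 0.06, the latter well above background on 5 of 6 arrays. The last 2 probes stand for other transcripts of the gene in the array annotation, so a single direction for Tgfbr1 was not measured.

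Smad3, which carries the signal to the nucleus, did not pass with either probe. Probe A_55_P2101001 (chr9:63494574-63494633, minus strand) gave 2.30, 2.21 and 2.22 in MRL mice and 2.15, 2.27 and 2.13 in LPR mice. The change was -0.06 (95% interval -0.30 to 0.18, adjusted p = 0.716 by limma), and the other probe, A_52_P352277, had a change of 0.00 (95% interval -0.28 to 0.29). Both intervals leave out a change of the size seen for Tgfb3.

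Smad7, the inhibitory Smad that is itself induced by TGF-β, had probes that differed. The brighter probe A_51_P403636 gave 0.06, 0.24 and 0.52 in MRL mice and 0.28, 0.57 and 0.31 in LPR mice, a change of 0.11 (95% interval -0.25 to 0.48, adjusted p = 0.651 by limma). Probe A_55_P2741400 gave -3.43, -2.76 and -2.16 in MRL mice and -3.41, -3.32 and -3.42 in LPR mice. The MRL mice were spread widely (SD 0.63, n = 3), whereas the LPR mice were nearly equal to each other and to MRL 1 (SD 0.06, n = 3). The change of -0.60 did not pass (adjusted p = 0.219 by limma), and without MRL 1 it was -0.92 and passed (adjusted p = 0.0457).

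Tgfbi, a matrix protein that was named for its induction by TGF-β, changed most among the 9 genes. It was measured by A_51_P212754 (chr13:56740460-56740519, plus strand) and gave 0.84, 0.96 and 1.05 in MRL mice and 2.78, 2.68 and 2.53 in LPR mice. The lowest LPR mouse exceeded the highest MRL mouse by far more than the spread within either group. Tgfbi thus rose 3.27-fold, and limma gave a log2 change of 1.71 ± 0.12 (standard error) with an adjusted p of 0.000178. It passed under all 21 alternatives, with changes from 1.65 to 1.83.

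Bmp7 was lower in each LPR kidney than in each MRL kidney, but the difference did not pass the test. Probe A_52_P278354 (chr2:172695203-172695262, minus strand) gave 1.61, 1.81 and 1.64 in MRL mice and 1.12, 1.58 and 1.22 in LPR mice. LPR 1 and LPR 3 were clearly below the MRL mice, and LPR 2 lay just under MRL 1. The log2 change was -0.38 (standard error 0.15, 95% interval -0.72 to -0.03), which is 1.30-fold lower, with an adjusted p of 0.141 from limma. Less the median of all probes, the change was -0.24, and it was -0.22 to -0.24 under the other scalings and normexp. MRL mice had a mean of 1.68 ± 0.11 (SD, n = 3), against 1.31 ± 0.24 (SD, n = 3) for LPR mice. Without LPR 2 the change was -0.51 and passed (adjusted p = 0.0438), and without LPR 1 it was -0.28 (adjusted p = 0.271).

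**Figure D2:**
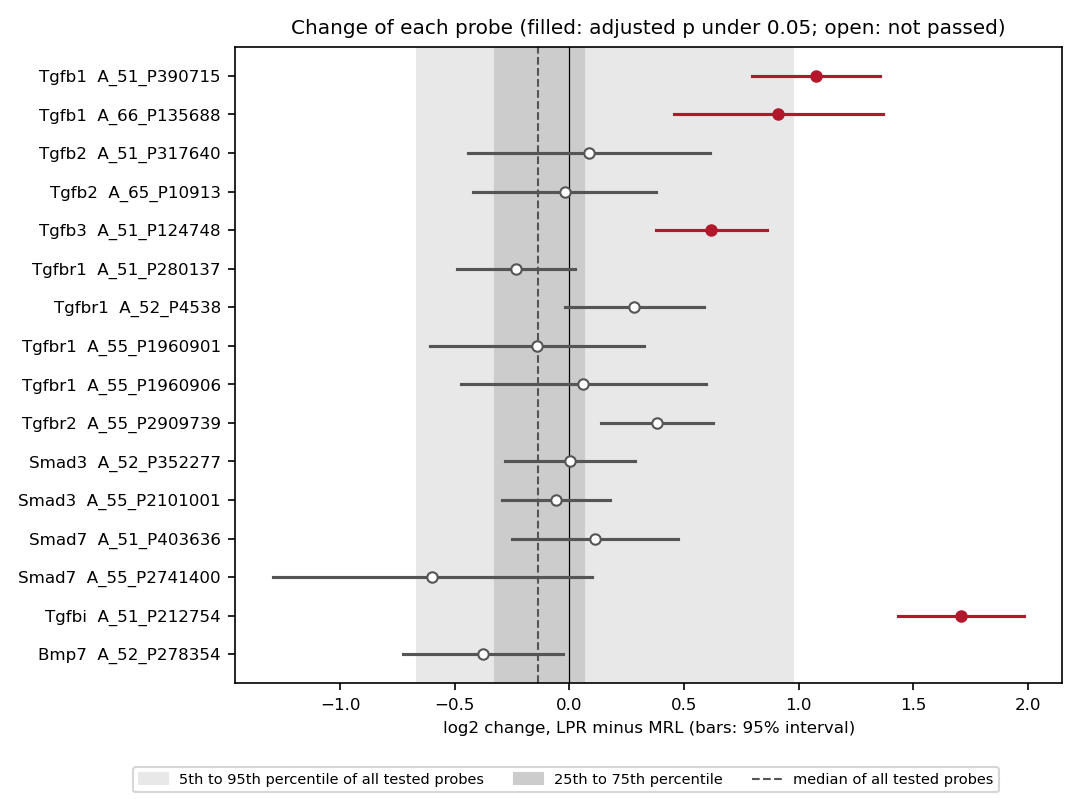
Log2 change (LPR minus MRL, x axis) of each of the 16 probes (y axis), with its 95% interval from limma. Filled symbols passed at an adjusted p under 0.05 and open symbols did not. The light and dark bands hold the middle 90% and 50% of all tested probes, and the dashed line is their median of -0.14. Only Tgfbi and the brighter Tgfb1 probe lie outside the light band, and Smad3 lies within the dark band or at its edge.

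The sequence before the transcription start is shown for Tgfb1 and Tgfbi, the members with the largest rises, 250 bases each on the plus strand from RefSeq (GRCm38.p6). The promoter table holds no entry for Tgfb3 or Bmp7. Capitals mark matches, on either strand, to CAGAC (Smad-binding element), TGANTCA (AP-1) or GGGCGG (GC box).
Tgfb1 chr7:25686752-25687001: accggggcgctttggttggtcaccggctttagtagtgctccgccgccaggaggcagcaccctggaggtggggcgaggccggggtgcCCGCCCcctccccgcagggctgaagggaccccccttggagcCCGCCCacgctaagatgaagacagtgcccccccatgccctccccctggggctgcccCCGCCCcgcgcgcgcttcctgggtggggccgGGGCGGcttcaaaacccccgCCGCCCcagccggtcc
Tgfbi chr13:56609336-56609585: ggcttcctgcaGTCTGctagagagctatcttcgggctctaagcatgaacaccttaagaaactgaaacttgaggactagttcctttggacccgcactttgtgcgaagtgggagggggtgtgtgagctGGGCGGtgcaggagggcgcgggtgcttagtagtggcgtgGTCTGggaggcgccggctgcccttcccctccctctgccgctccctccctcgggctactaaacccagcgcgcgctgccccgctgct
The Tgfbi window holds 2 matches to CAGAC and 1 GC box, and the Tgfb1 window holds 5 GC boxes and no CAGAC. Neither window holds TGANTCA. Of 32851 promoter windows of this length, 42.2% hold CAGAC, 32.7% hold GGGCGG and 6.75% hold TGANTCA, so such matches are common and are given as a description of the sequence.

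The genes that hold TGF-β latent or release it moved in both directions. Of 12 genes, all tested, 3 were higher and 2 were lower in LPR mice, and the median log2 change was 0.09. Ltbp2, a matrix protein of the family that binds latent TGF-β, although Ltbp2 itself is not known to do so, rose 8.92-fold. It gave -2.62, -2.75 and -2.80 in MRL mice and 0.64, -0.03 and 0.69 in LPR mice (adjusted p = 0.000132 by limma). Nrros, which anchors latent TGF-β on macrophages and microglia, rose 4.15-fold, from -0.48, -0.43 and -0.26 to 1.72, 1.78 and 1.49 (adjusted p = 0.000107). The groups were far apart for both genes. Fbn1, the fibrillin to which latent complexes attach, rose by 0.76 on the log2 scale (adjusted p = 0.0210 by limma), but not without MRL 1, MRL 3, LPR 1 or LPR 3 (adjusted p = 0.0611 to 0.0731).

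The 2 that were lower encode the partners of the integrin αvβ6, an activator of latent TGF-β on epithelial cells. Itgb6 gave 2.63, 2.40 and 2.74 in MRL mice and 1.71, 1.77 and 1.75 in LPR mice, with the LPR mice nearly equal. It was 1.80-fold lower (log2 change -0.85, standard error 0.12, adjusted p = 0.00545 by limma), and the second Itgb6 probe had a change of -0.83. With the slide column as a block, where LPR 1 is the only LPR mouse compared, its change was -0.88. Itgav had a change of -0.50 (adjusted p = 0.0358), which no longer passed when any 1 mouse was left out (adjusted p = 0.0651 to 0.115), and its 3 other probes had changes of -0.34 to -0.70 that did not pass. Thbs1 and Furin, which can activate the ligand or process its precursor, had changes of 0.11 and 0.05 that did not pass.

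Among the co-receptors, Smads and regulators of the pathway, 1 of 16 tested genes was higher and 0 were lower (17 listed, median 0.01). This was Dcn, encoding the proteoglycan decorin that binds TGF-β, which rose 1.80-fold, from 3.30, 3.17 and 3.36 to 3.95, 4.29 and 4.16 (adjusted p = 0.00639 by limma). With the slide column as a block, where LPR 1 is the only LPR mouse compared, its change was 0.67. Smad2 and Smad4, the partners of Smad3, had changes of -0.22 and 0.01 that did not pass. For Smurf2, a ligase that degrades the receptor, the brighter probe had a change of -0.44 that did not pass (adjusted p = 0.0641) and the other of -0.40 that did (adjusted p = 0.0479). Smurf2 was named after its values were seen.

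Of 19 genes listed as targets of TGF-β, all tested, 8 were higher in LPR mice and 0 were lower, and the median log2 change was 0.54. Over all genes, 7.12% were higher and 5.47% were lower. The list was chosen with earlier results of these data known, and the study had already reported collagen genes as higher in these LPR kidneys. Timp1, an inhibitor of matrix proteases, gave -1.94, -1.88 and -1.98 in MRL mice and 0.74, 0.22 and 0.91 in LPR mice, a 5.89-fold rise (adjusted p = 0.000220 by limma). Col1a1, a chain of type I collagen, gave -0.72, -0.37 and -0.95 in MRL mice and 1.76, 1.55 and 1.76 in LPR mice, a 5.18-fold rise (adjusted p = 0.000203). Col3a1, the chain of type III collagen, rose 2.70-fold (adjusted p = 0.00250). The groups did not overlap for any of these genes.

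Other targets that rose were Col1a2 by 2.12-fold, the smooth muscle genes Tagln by 1.63-fold and Acta2 by 1.52-fold, and the cytokine gene Il11 by 1.36-fold. Il11 did not pass without MRL 1, MRL 2, MRL 3, LPR 1 or LPR 3, and with normexp its log2 change was 0.08 (adjusted p = 0.491). Acta2 did not pass without MRL 1, MRL 3 or LPR 3, and Tagln did not pass without LPR 3 (adjusted p = 0.0512). With the slide column as a block, LPR 1 is the only LPR mouse compared. The log2 change was then 0.62 for Tagln, 0.55 for Acta2 and 0.57 for Il11. The number of higher targets was 4 without LPR 3. The other 11 targets did not pass. Among them, Ctgf (now named Ccn2) had a change of 0.01, Fn1 of 0.46, Cdkn1a of 0.24 and Snai1 of 0.54. Many of these targets answer to other cytokines as well.

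**Figure D3:**
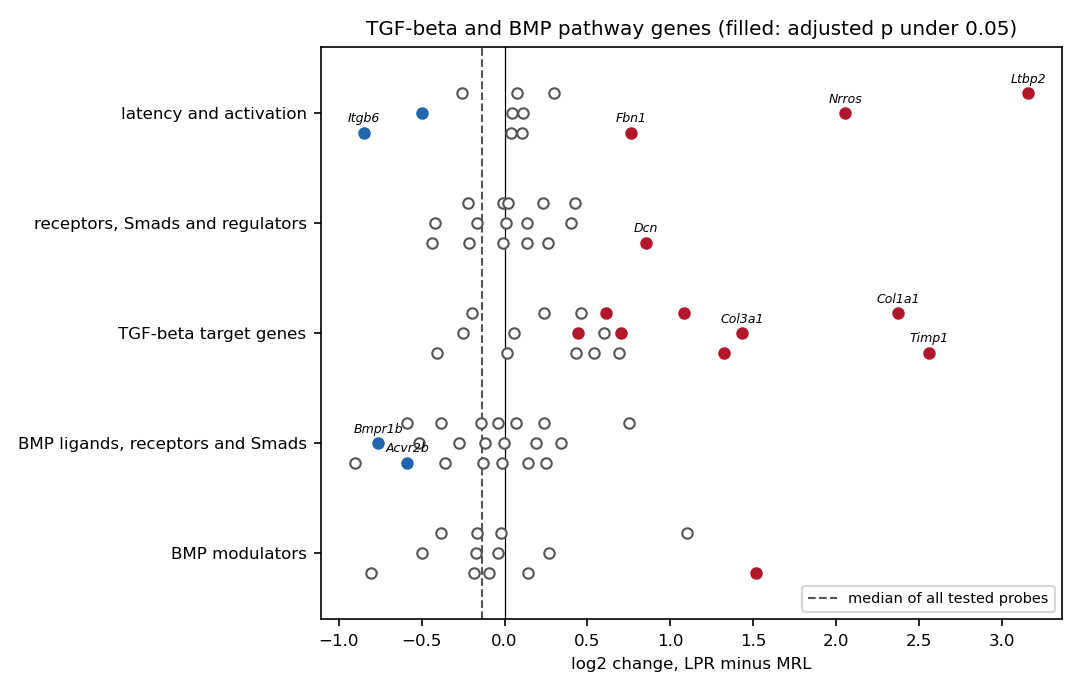
Log2 change (LPR minus MRL, x axis) of the genes of 5 lists around the TGF-β and BMP pathways, 1 symbol per gene by its brightest probe. Filled red symbols were higher and filled blue symbols lower at an adjusted p under 0.05 in limma, open symbols did not pass, and up to 4 genes per list are named. The targets of TGF-β lie mostly to the right of the dashed median of all tested probes, and the BMP lists lie around it.

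Around Bmp7, the BMP ligands, receptors and Smads held 0 genes that were higher and 2 that were lower among 21 tested (median -0.11). Bmpr1b, a type I receptor for BMPs, gave -1.41, -1.39 and -1.29 in MRL mice and -1.83, -2.14 and -2.41 in LPR mice (log2 change -0.76, adjusted p = 0.0260 by limma). Acvr2b, a type II receptor used by activins and BMPs, gave 1.96, 2.03 and 1.96 in MRL mice and 1.22, 1.60 and 1.38 in LPR mice (log2 change -0.59, adjusted p = 0.0279), and its other probe had a change of -0.67. The groups did not overlap for either gene, but each call was lost in 5 of 6 analyses that left out 1 mouse. No gene of the list was lower without MRL 1, MRL 2, MRL 3 or LPR 3, 1 was without LPR 1 and 2 were without LPR 2. The target genes Id1, Id2, Id3 and Id4, which BMP signalling induces, had changes of 0.07, -0.02, 0.75 and -0.36, and none passed. Bmp4, the ligand most studied beside Bmp7 in the kidney, had a change of -0.59 that did not pass (adjusted p = 0.0703).

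Of 14 genes that modulate BMPs outside the cell, 13 were tested, 1 was higher and 0 were lower (median -0.09). The number of higher genes was 0 without MRL 1, MRL 2, LPR 1 or LPR 3, and 2 without LPR 2. Grem1, an antagonist of BMPs, gave -2.59, -2.13 and -1.48 in MRL mice and -0.42, -1.85 and -0.61 in LPR mice. Its change of 1.10 did not pass (adjusted p = 0.141), and LPR 2 lay within the MRL values. Crim1, Kcp and Sostdc1, further binding partners of BMPs, had changes of -0.38, -0.18 and -0.17 that did not pass. Sostdc1 had a mean signal of 2.87 in MRL mice, against -2.06 for Grem1.

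Signals of markers of several cell types differed between the groups, and all 55 markers were well above background on all 6 arrays. For each list of 5 markers, the signals relative to the 75th percentile were summed on the linear scale. Such a sum gives most weight to the brightest markers and does not weigh the 5 equally. In LPR mice, for example, mean log2 signals were 6.03 for Jchain and 1.72 for Cd79b, the next brightest of that list. Among macrophage markers, Itgam (3.69) was the next brightest after Csf1r (4.31) and did not pass. The T cell sum was 2.40 to 2.79 in MRL mice and 8.02 to 9.34 in LPR mice, with 4 of 5 markers higher in limma, and 3 when any 1 mouse was left out. The sum of B and plasma cell markers rose from between 2.40 and 4.49 to between 46.1 and 89.5, with 4 higher, and Jchain was 22.5-fold higher. Ms4a1 was lower by its brightest probe (-0.70), a call lost when any 1 mouse was left out, and higher by the other (4.99). Macrophage markers gave 26.3 to 33.9 in MRL mice and 47.8 to 51.3 in LPR mice, with 4 of 5 higher. This number was 2 without MRL 2, LPR 1, LPR 2 or LPR 3 and 3 without either of the other mice. Fibroblast and pericyte markers gave 5.59 to 5.90 and 6.99 to 7.34, with 2 of 5 higher. These sums were higher in LPR mice, as were Tgfb1, Tgfbi, Nrros and the collagens. The part of any of these cell types in those rises was not tested.

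Of the brightest markers of the lists, Jchain rose by 4.49 on the log2 scale, Cd4 by 0.53 and Csf1r by 0.55. The pericyte gene Pdgfrb (0.32), the endothelial gene Emcn (-0.38), the proximal tubule gene Slc34a1 (-0.30), the thick ascending limb gene Umod (-0.21) and the collecting duct gene Aqp3 (0.01) did not pass. Calb1 of the distal convoluted tubule fell by 1.20 and Slc26a4 of intercalated cells fell by 0.67. The calls of Cd4 and Csf1r were lost in 6 and 5 of 6 analyses that left out 1 mouse, and those of Calb1 and Slc26a4 in 4 and 3.

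Beside Bmp7, the markers of the distal convoluted tubule gave a sum of 55.2 to 62.6 in MRL mice and 19.3 to 42.1 in LPR mice, with 3 of 5 lower in limma. The number of lower markers was 0 without MRL 1, MRL 2, MRL 3 or LPR 3. Other lists had lower sums in LPR mice as well. Intercalated cells gave 18.7 to 20.9 and 12.7 to 15.0, with 3 of 5 lower, but 1 without MRL 1 or MRL 2 and 0 without MRL 3 or LPR 3. Proximal tubule markers gave 440 to 490 and 331 to 378, with Slc5a2 (-0.57) and Lrp2 (-0.39) lower, and 0 to 1 lower with 1 mouse left out. Endothelial markers gave 16.2 to 17.4 and 11.9 to 13.9, with Kdr (-0.57) lower, and 0 lower in 5 of 6 such analyses. Those of the thick ascending limb gave 331 to 356 and 276 to 294, with 0 of 5 lower. The sums for collecting duct principal cells (29.2 to 36.1 and 28.6 to 36.0) and podocytes (19.1 to 21.8 and 20.0 to 25.8) overlapped between the groups, and none of their markers passed. In LPR mice Bmp7 was lowest in LPR 1 and highest in LPR 2, and 4 of the 5 distal convoluted tubule markers had this order. Calb1, for example, gave 3.23, 4.38 and 4.02 in LPR 1, 2 and 3, and Slc12a3 gave 1.02, 1.79 and 1.56. The order was not particular to these cells. Cubn, Slc34a1, Slc5a2 and Slc22a6 of the proximal tubule shared it and Lrp2 did not, with 6.79, 7.15 and 6.94 for Slc34a1. Of intercalated cells, Atp6v0d2, Slc4a1 and Foxi1 shared it, and Atp6v1g3 and Slc26a4 did not. The part of any of these cell types in the Bmp7 difference was not tested.

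**Figure D4:**
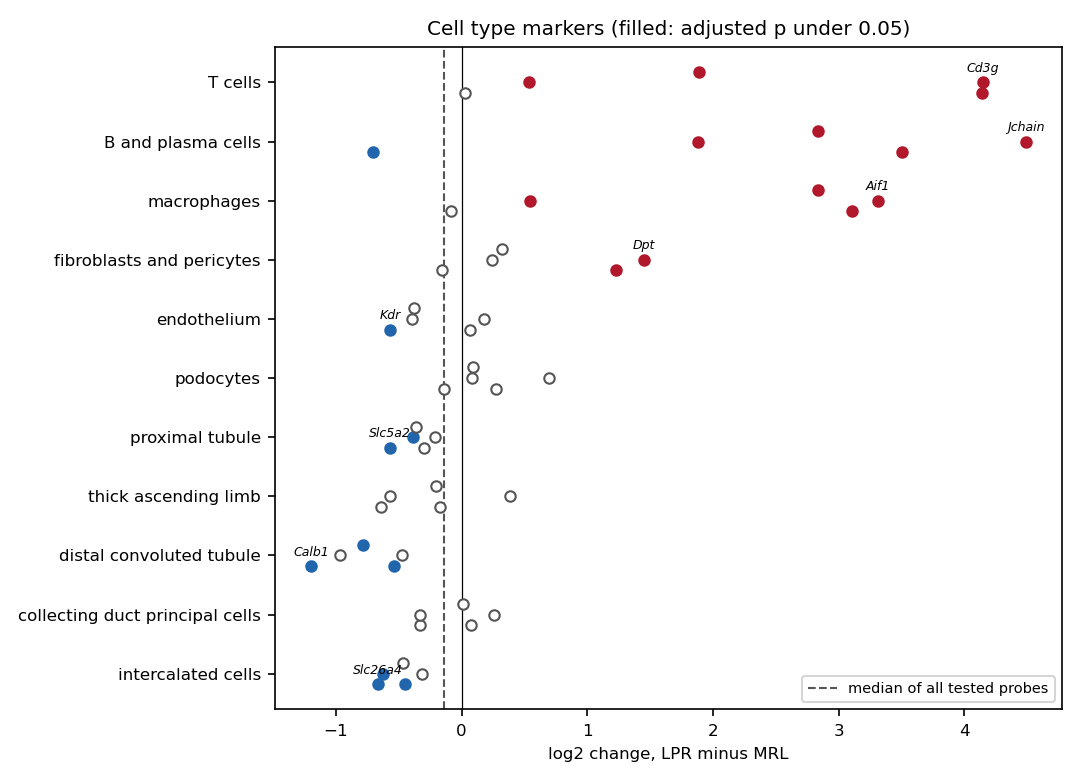
Log2 change (LPR minus MRL, x axis) of 5 markers for each of 11 cell types of the kidney (y axis), by the brightest probe. Filled red and blue symbols were higher or lower at an adjusted p under 0.05 in limma, open symbols did not pass, and the most changed marker that passed is named. Markers of T cells, B and plasma cells and macrophages lie farthest to the right, and those of the distal convoluted tubule farthest to the left.

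The genes whose pattern over the 6 arrays was most like that of Tgfb1 were Tapbp, Timp2 and Slc22a16, among 22586 candidate probes. Likeness was the root mean square difference of log2 signals after centring each probe on its own mean. It was 0.02 for Tapbp, a chaperone of MHC class I loading, 0.07 for Timp2, an inhibitor of matrix proteases, and 0.07 for the transporter gene Slc22a16. Tapbp gave -1.86, -1.89 and -2.02 in MRL mice and -0.92, -0.67 and -0.94 in LPR mice, so that LPR 2 was the highest for both genes. For Bmp7 they were Cyb5rl, Cyp2w1 and Pex16, at 0.03, 0.03 and 0.04. These 3 genes had changes of -0.38, -0.33 and -0.43 that did not pass, and LPR 2 was the highest LPR mouse in each. These values describe 6 arrays of which 3 are of each group. The genes were picked for likeness over these arrays, so their similar changes follow from the choice.

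**Figure D5:**
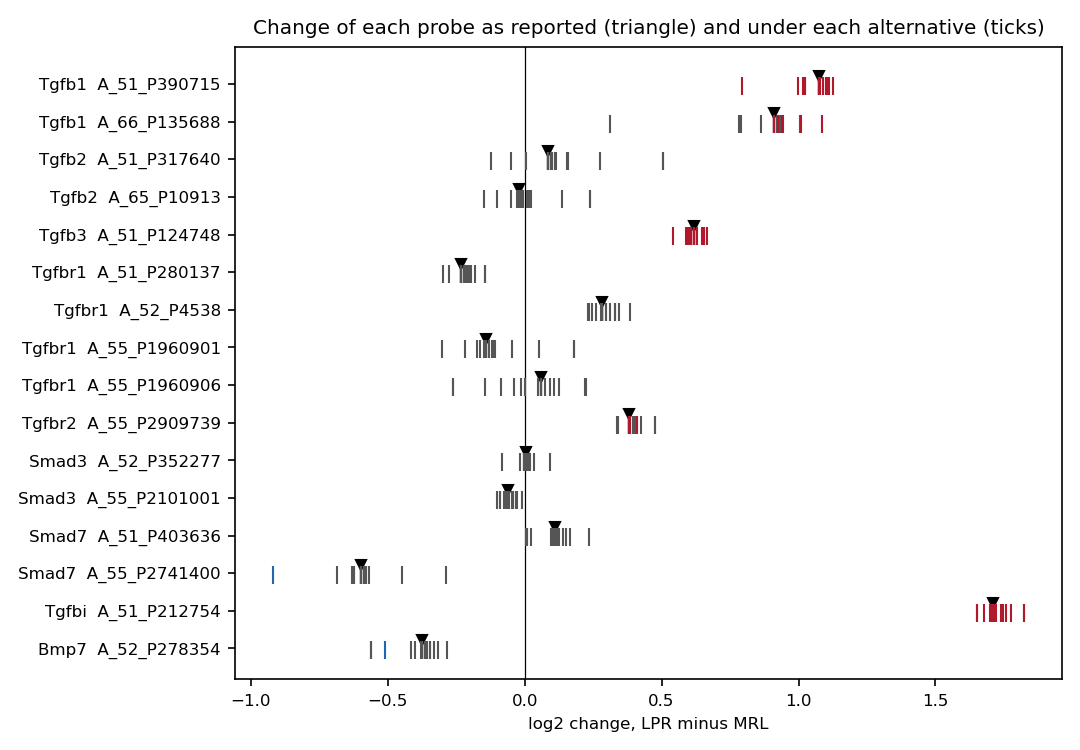
Log2 change (LPR minus MRL, x axis) of each of the 16 probes (y axis) as reported (black triangle) and under up to 21 alternatives in processing, test or samples (ticks). Red and blue ticks passed at an adjusted p under 0.05 and grey ticks did not. Tgfbi and the brighter Tgfb1 probe have red ticks throughout, while Bmp7 and 1 probe of Smad7 have a single blue tick each, from leaving out 1 mouse.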

How the data were processed

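Kidney RNA of 3 MRL and 3 LPR mice was measured on 6 Agilent arrays of 1 slide, with mice as replicates. The labels name RNeasy for RNA isolation and the methods of the study Trizol. The authors deposited intensities from Feature Extraction 12.0.3.1, background-subtracted and without normalization between arrays, and a table of the ratio of these intensities to each array's 75th percentile, which served as an alternative. From the intensities, control and outlier spots were left out, and log2 values were shifted by each array's 75th percentile and averaged per probe. The 39924 probes well above background on 3 or more of 6 arrays were tested with limma (3.58.1, under R 4.3.3). P-values were adjusted after Benjamini-Hochberg over all of them, with a threshold of 0.05. The tested probe of highest mean signal stands for a gene. The number of arrays limits the precision. Members and lists were chosen with earlier results of these data known. Named were every member, up to 4 genes per list by size of change among those that passed, the brightest marker per list, the 3 genes most like Tgfb1 and Bmp7, and Fas; other genes named were chosen after their values were seen. Some genes that meet this rule are not reported here and stay in the counts. All 154 listed probes with a RefSeq accession were matched to RefSeq names. Tried as alternatives were normexp (offset 50), other scalings, the authors' ratios, outlier spots kept, a floor at the detection limit, other filters, a trend in limma, blocks for slide column and replicate number, the mean over probes, the methods' test on log2 and linear values, leaving out each mouse, and, chosen after seeing the data, the first slide column alone. The fit was tested on simulated data (seed 11), and plots were made in python 3.11.15 using matplotlib 3.10.9.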

Additional observations from a re-analysis of the deposited data

How the results depend on the processing

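With 3 mice per group, many calls near the threshold changed with the processing, and the cause was not tested. With the slide column as a block, as within the first column, LPR 1 is the only LPR mouse compared with MRL mice. Fewer calls in these 2 settings therefore cannot tell slide position from a single mouse. The 3 higher genes Tgfb1, Tgfb3 and Tgfbi kept their direction under all 21 alternatives, and Tgfb1 and Tgfbi passed under each of them by their brightest probes. For Tgfbr2 the call was gained under 5 alternatives, for Bmp7 and for 1 probe of Smad7 under 1 each. The number of higher member probes was 2, not 4, with the slide column as a block and within the first slide column, where LPR 1 is the only LPR mouse. By the methods' test, 5 member probes were higher and 1 lower at an unadjusted p below the threshold, on log2 and on linear values, and 4 and 3 were higher after adjustment.

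Normexp background correction gave 2 higher and 2 lower genes among receptors, Smads and regulators, 1 higher BMP ligand, receptor or Smad, 1 lower target of TGF-β and 3 lower BMP modulators. Among latency genes, the number of lower genes was 1 with quantile normalization, without a filter on dim probes, with the replicate block and with the methods' test on either scale, where on linear values 1 latency gene was higher. Without a filter on dim probes, 0 BMP modulators were higher and 0 BMP ligands, receptors and Smads were lower. With probes above background on all 6 arrays 1 BMP modulator was lower. An intensity trend in limma gave 1 higher BMP ligand, receptor or Smad, and 1 lower gene each among receptors, Smads and regulators, TGF-β targets and BMP modulators. With the slide column as a block, 0 receptors, Smads and regulators, 4 TGF-β targets and 0 BMP modulators were higher, and 0 latency genes and 0 BMP ligands, receptors and Smads were lower. Within the first slide column these numbers were 0, 2, 0, 0 and 0. Of the cell type markers, 2 macrophage markers were higher with the block and 1 within the first column, where 0 fibroblast and pericyte markers were higher. The mean over probes gave 1 lower gene among receptors, Smads and regulators and 1 among BMP modulators. The methods' test gave 0 higher BMP modulators and 1 lower BMP ligand, receptor or Smad on both scales.

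When 1 mouse was left out, 3 to 4 member probes were higher and 0 to 1 lower, and 3 member genes were higher and 0 to 1 lower. The other numbers were 2 to 3 higher and 1 to 1 lower latency genes, 4 to 8 higher TGF-β targets, 0 to 1 higher and 0 to 2 lower BMP ligands, receptors and Smads, and 0 to 2 higher BMP modulators.

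Changes of sign occurred in probes without a call. With the slide column as a block, and likewise within the first slide column, the log2 change was 0.24 for Tgfb2 probe A_65_P10913, 0.18 for Tgfbr1 probe A_55_P1960901, -0.26 for Tgfbr1 probe A_55_P1960906 and -0.0032 for Smad3 probe A_52_P352277. The last was -0.0034 by the methods' test on linear values. Tgfbr1 probe A_55_P1960906 was -0.087 with normexp and -0.015 with signals raised to the detection limit, and Tgfb2 probe A_65_P10913 was 0.0091 with the percentile over detected probes. With 1 mouse left out, the ranges were -0.15 to 0.14 for Tgfb2 probe A_65_P10913, -0.12 to 0.27 for A_51_P317640, -0.30 to 0.051 for Tgfbr1 probe A_55_P1960901, -0.14 to 0.22 for A_55_P1960906, -0.082 to 0.094 for Smad3 probe A_52_P352277 and -0.11 to 0.20 for Aqp3.

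The labels give both groups the replicate numbers 1 to 3, and whether these pair the mice was tested. The correlations of deviations between mice of the same number were 0.12, 0.02 and 0.0052, so that only 1 exceeded 0.1, and the best match was the same number for MRL 1 and LPR 1 but not for the others. With the replicate block, 3 member genes and 3 member probes were higher and 0 lower, 0 BMP ligands, receptors and Smads were lower. Of all tested probes, 1117 were then lower in place of 2462.

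Over all tested probes, 2606 were higher and 2462 lower. The number of higher probes was 1458 with the slide column as a block, 1013 within the first column, and 1736 and 1444 by the methods' test on log2 and linear values. That of lower probes was 463, 400, 1386 and 1354 in the same order, 4498 with normexp and 1092 without a filter. With 1 mouse left out, 1659 to 2152 were higher and 800 to 2291 lower.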

Other observations

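Of 19 further ligands of the family (activins, inhibins, growth differentiation factors, Nodal, Lefty genes, myostatin and anti-Müllerian hormone), a list drawn up after values had been seen, 13 were tested, 2 were higher in LPR mice by limma and 0 were lower, with a median log2 change of 0.28. Gdf10, a ligand related to Bmp3, gave -0.15, 0.25 and -0.23 in MRL mice and 1.01, 1.22 and 1.02 in LPR mice. The groups did not overlap, and the adjusted p was 0.00453 by limma. With the slide column as a block and within the first column, where LPR 1 is the only LPR mouse compared, the change was 1.05. Gdf3 rose by 0.77 on the log2 scale with its brightest probe (adjusted p = 0.0103 by limma), and by 0.67 with that block. It rose by 5.04 with its other probe, which exceeded background in 2 of 3 MRL and 3 of 3 LPR mice. The 2 Gdf3 probes thus differ in the size of the rise.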
